A study of Schizosaccharomyces pombe with 6 samples.

Results

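The 10 histone genes of the fission yeast *Schizosaccharomyces pombe* were described by their transcription start sites in 6 libraries. They were chosen by name and comprise hta1 and hta2 for histone H2A, htb1 for H2B, hht1, hht2 and hht3 for H3, hhf1, hhf2 and hhf3 for H4, and pht1 for the variant H2A.Z. They are 10 of the 12606 annotated genes and 10 of the 5610 with a mean of at least 1 TPM, where TPM, the authors' unit for CAGE tags, scales a gene's tags to the size of its library. The 9 genes other than pht1 are called the core genes below. CAGE (cap analysis of gene expression), a method that reads the first bases of capped RNAs, was applied to total RNA of whole cells. The wild type is strain Hu0029, of mating type h-, with the alleles leu1-32, ura4-D18 and ade6-M210. The mutant is strain Hu2000, h- with leu1-32, ura4-D18 and ade6M210, which also carries fft2::kan and fft3::hph. Each had 3 libraries. Both strains thus share the auxotrophic markers, and each genotype is represented by a single strain. Cells were shaken at 180 rpm and 30 °C in YES medium and taken in mid-log phase. The series asks whether start sites move in this mutant.

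A nucleosome wraps DNA around an octamer of H2A, H2B, H3 and H4, and H2A.Z replaces H2A in nucleosomes next to many promoters. Core histone genes are transcribed mainly in S phase, when new DNA has to be packaged, and in fission yeast this involves the GATA-type factor Ams2 and the telobox-binding protein Teb1. Fft2 and Fft3 are SNF2-family chromatin remodelling ATPases. In bulk cultures, fewer cells transcribing a gene and fewer transcripts per cell cannot be told apart.

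Depth ran from 12681900 tags in wild-type replicate 2 to 23242898 in mutant replicate 1, and between 91.2% and 92.3% of tags lay in the 108138 deposited clusters. Promoter tags of the deleted fft2 were 67.6 ± 1.20 TPM in wild-type cells and 11.01 ± 0.763 TPM in the mutant. Those of fft3 were 71.2 ± 29.2 and 174 ± 47.4 TPM. Tags were thus still found in the fft3 promoter window, and promoter tags alone do not check that label. Whether these tags came from the native promoter or from the inserted marker was not tested. Wild-type replicate 2 stood apart, with 44 genes at more than 4 times the level of both other wild-type libraries, against 1 to 7 genes in each other library. It also held 1.58 TPM at ura4, which is deleted in both strains, while no other library exceeded 0.152 TPM. Growth was described for duplicate cultures and libraries are triplicates, so some libraries may share a culture, and p-values measure only the spread between libraries.

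Of the core genes, 8 lie head to head in 4 divergent pairs. The pair hta1 (chrIII:1411144-1412181, minus strand) and htb1 (chrIII:1412359-1413677, plus strand) has 177 bp between annotated starts. The pair hhf1 (chrI:4698773-4699599, minus) and hht1 (chrI:4699732-4700560, plus) has 132 bp, and hhf2 (chrII:1364189-1364984, minus) and hht2 (chrII:1365119-1365818, plus) have 134 bp. Between hht3 (chrII:3528800-3529565, minus) and hhf3 (chrII:3529767-3530388, plus) there are 201 bp. No other annotated start lies between the genes of any pair. The H2A gene hta2 (chrI:4052446-4053318, minus) has its nearest divergent start 1579 bp away, at SPNCRNA.3809. The nearest divergent start to pht1 (chrII:1502203-1503444, minus) is that of SPNCRNA.5215, 111 bp away. The coding part of every member is a single exon.

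The promoters of all core genes carried a tandem AACCCT box, and pht1 did not. The bases between the genes of each pair are shown, read towards the gene named last, with 200 bp upstream of hta2 and pht1, from RefSeq assembly ASM294v3. For hht3 and hhf3 the stretch is read towards hht3, the minus-strand gene, and ends before the measured start of hhf3. Capitals mark matches to AACCCT or TATAAA on either strand, so the reverse of the first reads AGGGTT and that of the second TTTATA. The shared promoters show the box within each pair, hta2 shows it without a partner, and pht1 shows a promoter that lacks it.
hta1 to htb1, chrIII:1412182-1412358, plus strand: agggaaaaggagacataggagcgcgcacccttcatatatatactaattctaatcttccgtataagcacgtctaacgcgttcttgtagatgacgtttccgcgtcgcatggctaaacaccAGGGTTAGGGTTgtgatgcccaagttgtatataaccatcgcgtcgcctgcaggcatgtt
hhf1 to hht1, chrI:4699600-4699731, plus strand: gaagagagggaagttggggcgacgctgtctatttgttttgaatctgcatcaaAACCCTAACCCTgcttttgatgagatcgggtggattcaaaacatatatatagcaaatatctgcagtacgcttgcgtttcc
hhf2 to hht2, chrII:1364985-1365118, plus strand: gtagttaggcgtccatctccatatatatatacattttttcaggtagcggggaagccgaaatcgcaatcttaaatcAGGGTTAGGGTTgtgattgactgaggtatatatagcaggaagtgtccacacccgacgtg
hhf3 to hht3, chrII:3529566-3529711, minus strand: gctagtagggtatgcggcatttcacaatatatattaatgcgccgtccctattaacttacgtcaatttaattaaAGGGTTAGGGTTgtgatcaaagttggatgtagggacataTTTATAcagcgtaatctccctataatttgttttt
hta2, chrI:4053319-4053518, minus strand: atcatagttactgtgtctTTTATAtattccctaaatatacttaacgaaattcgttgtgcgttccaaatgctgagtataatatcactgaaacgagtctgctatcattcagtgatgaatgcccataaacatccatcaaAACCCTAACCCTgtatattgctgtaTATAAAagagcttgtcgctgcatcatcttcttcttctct
pht1, chrII:1503445-1503644, minus strand: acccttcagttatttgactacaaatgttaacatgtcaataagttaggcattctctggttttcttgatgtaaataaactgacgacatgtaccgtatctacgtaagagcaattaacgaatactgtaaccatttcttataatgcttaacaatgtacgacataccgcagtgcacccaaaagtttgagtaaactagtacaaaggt

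A match to AACCCT on either strand within 200 bp upstream of the annotated start was found in 9 of 10 members and in 6.83% of 5112 coding promoters. Adjoining matches were found in the same 9 members and in 0.372% of coding promoters, or 19 promoters. These 9 promoters share DNA, since each of the 4 divergent pairs has a single tandem box that serves the count of both genes. They therefore hold 5 boxes, counting that of hta2. Between the box and the annotated start lay 47 bp for htb1 and hht2, 52 bp for hta2 and hhf1, 61 bp for hht3, 68 bp for hht1, 75 bp for hhf2, 118 bp for hta1 and 128 bp for hhf3. The annotated start of hhf3 is its start codon, and its measured start lay 54 bp nearer to the box. The orientation of the box was not fixed relative to the gene, since AACCCT read along the strand of hta1, hta2, hht1, hhf2 and hhf3 and along the opposite strand of the other 4.

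The 5 boxes shared more than the AACCCT repeat. Read in the direction of AACCCT, all 5 had the 17 bases ATCANAACCCTAACCCT, where N stands for any base. This longer element was derived from the printed promoters and not chosen beforehand. It occurred 6 times on the 3 chromosomes, against 19 sites for the tandem AACCCT alone, and of 5112 coding promoters it lay in those of the 9 core genes and of bdf2. The gene bdf2 encodes a bromodomain protein of the BET family, and its level was 136 ± 9.46 TPM in wild-type cells and 163 ± 5.95 TPM in the mutant (limma adjusted p = 0.0899). Of the 10 other genes with a tandem AACCCT upstream, 3 rose in the mutant and none fell, near the shares of all 5610 genes tested, of which 24.3% rose and 9.11% fell (limma adjusted p under 0.05). These were the Hsp70 chaperone gene ssa1 (71.5 to 153 TPM, adjusted p = 0.00139), the TATA-binding protein gene tbp1 (185 to 264 TPM, adjusted p = 0.0122) and erg1 (47.4 to 82.4 TPM, adjusted p = 0.00769). A match to a motif is a description of these letters only.

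A TATA-like match, TATATA or TATAAA on either strand, lay within 50 bp upstream of the main start of 8 members, against 15.7% of 4685 coding genes. These letters were chosen with the promoters in view. The nearest match ended between 22 and 35 bp before the start in these 8, and hhf1 and pht1 had none in that window. GATAAG was in none of the 10 windows of 200 bp and in 8.51% of all coding promoters.

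**Figure D1:**
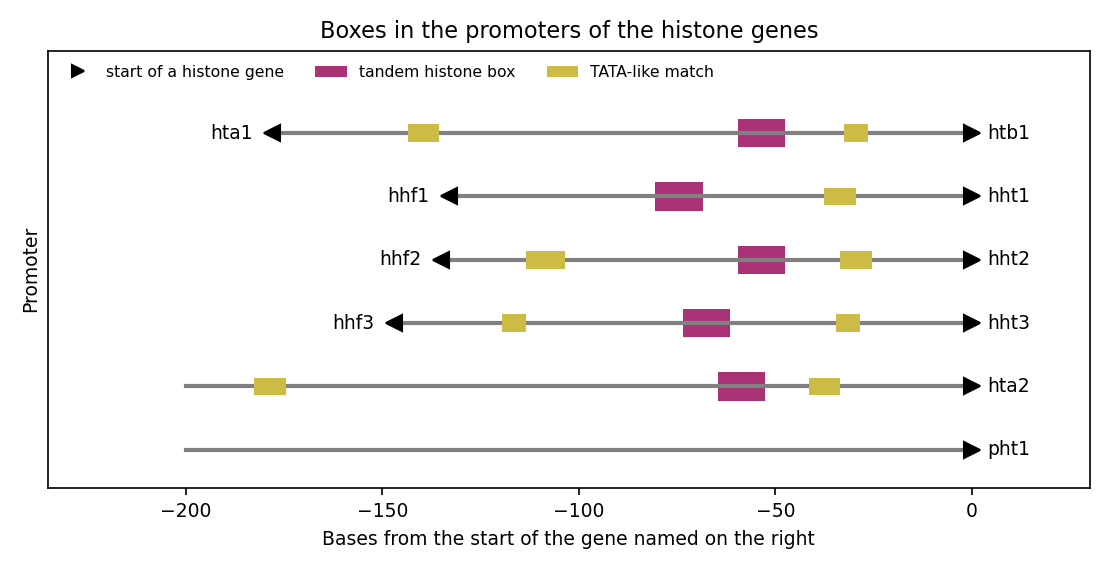
Map of the 6 printed promoters, with distance in bases from the start of the gene named on the right along the x axis. Arrows mark starts of histone genes, wide bars the tandem AACCCT box and narrow bars TATA-like matches; all promoters except that of pht1 have a tandem box, which lies nearer to htb1 and to hht2 than to their partners and near the middle in the other pairs.

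Start sites of the core genes were narrow. The main cluster, the cluster with most of a gene's tags, was 2 bp wide for hta2 and hhf1, 4 bp for hta1, 5 bp for hht2, 7 bp for hhf3, 8 bp for htb1, 12 bp for hht3, 15 bp for hhf2 and 16 bp for hht1. With the 12 bp of pht1, the median over the members was 7.5 bp, against 22 bp over coding genes. Main clusters of at most 5 bp were found for 4 of 10 members and for 10.6% of coding genes. In every library the main cluster of each core gene held at least 97.4% of the gene's promoter tags. Each of the 10 main starts followed the pyrimidine-purine step that is usual for initiation, and the 25 bases from each start occurred once in the genome.

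The leader, from the summit (the position with most tags) to the start codon, ranged from 35 bp in hht3 to 258 bp in hta1. It was 39 bp in hht2, 54 bp in hhf3, 70 bp in hta2, 93 bp in hht1, 124 bp in htb1, 160 bp in hhf2 and 202 bp in hhf1. In all 4 pairs the H3 or H2B gene had the shorter leader and the H4 or H2A gene the longer. For hhf3 the annotation puts the gene's start at the start codon, and the summit lay 54 bp upstream of it. Measured between summits, hht3 and hhf3 were 148 bp apart.

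The H3 copies encode identical proteins from coding sequences with 88.3% to 92.7% identical bases. The same holds for the H4 copies, with 91.3% to 93.3% identical bases. Because CAGE tags begin in the leader, where the copies differ, the starts of all copies could be told apart.

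In the tests across genes, none of the 10 members passed. Of all 5610 genes tested, 24.3% rose, 9.11% fell and 33.4% changed either way in the mutant (limma on log2(TPM + 0.5), Benjamini-Hochberg adjusted p under 0.05), and among the members 0 of 10 passed in either direction. At an unadjusted p under 0.05 there were 3 members, hht2, hhf3 and pht1, which is 3 of 10 against 44.4% of all genes. With edgeR, and likewise with DESeq2, on the recovered tags 1 member passed, hhf3, which fell. The median log2 fold change was -0.08 over the members and 0.13 over all genes. A fall below 0 was estimated for 6 members and a value above 0 for 4.

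**Figure D2:**
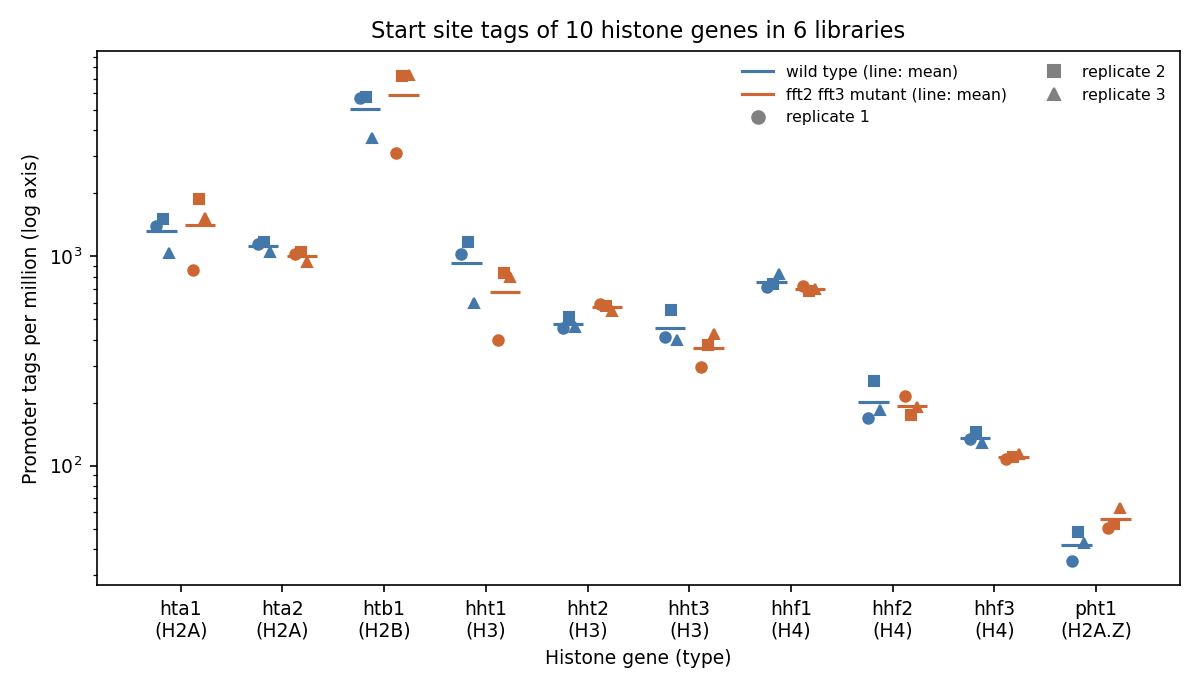
Promoter TPM (log axis) of each histone gene on the x axis, with its histone type, in the 3 wild-type and 3 mutant libraries. Points are libraries, with a marker per replicate number, and lines are group means; htb1 is highest and pht1 lowest in every library, and hta1, htb1 and hht1 are low in wild-type replicate 3 and mutant replicate 1.

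Among the H2A genes, hta1 had 1398, 1514 and 1040 TPM in wild-type replicates 1 to 3 and 857, 1870 and 1522 TPM in mutant replicates 1 to 3. Its lowest and highest libraries were both mutant ones, and the groups overlapped. The log2 fold change was 0.05 (95% interval -0.62 to 0.71, limma adjusted p = 0.915), or 0.38 without mutant replicate 1 (adjusted p = 0.172). The other copy, hta2, had 1148, 1167 and 1043 TPM in wild-type cells and 1031, 1051 and 942 TPM in the mutant. These values lay close together, and the lowest wild-type library was below the highest mutant library. The log2 fold change of hta2 was -0.15 (95% interval -0.40 to 0.10, limma adjusted p = 0.315). The copies thus differed in their spread, since the highest of the 6 libraries was 2.18 times the lowest for hta1 and 1.24 times for hta2.

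The share of hta1 in H2A tags was 54.9%, 56.5% and 49.9% in wild-type cells and 45.4%, 64.0% and 61.8% in the mutant. The copy with more tags was hta1 in all libraries except wild-type replicate 3 and mutant replicate 1, where hta2 was ahead. The groups overlapped (exact permutation p = 0.6, two-sided). With 3 libraries against 3, no exact p can be below 0.1.

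The H2B gene htb1 was the histone gene with the highest level in each library and ranked 22 among 4987 coding genes in wild-type cells and 19 in the mutant. It had 5732, 5738 and 3669 TPM in wild-type cells and 3110, 7291 and 7341 TPM in the mutant. Wild-type replicate 3 and mutant replicate 1 were low, and the groups overlapped. The log2 fold change was 0.15 (95% interval -0.66 to 0.97, limma adjusted p = 0.770), or 0.57 without mutant replicate 1 (adjusted p = 0.0877). Its coefficient of variation was 23.6% in wild-type cells and 41.1% in the mutant, against medians over all genes of 14.7% and 13.4%. H2B is encoded by this gene alone, and the ratio of H2B to H2A tags was 2.05 ± 0.257 in wild-type cells and 2.37 ± 0.673 in the mutant, with overlapping groups.

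None of the H3 genes passed the test. The most abundant copy in the wild-type mean, hht1, had 1027, 1169 and 596 TPM in wild-type cells and 397, 833 and 793 TPM in the mutant. Wild-type replicate 3 and mutant replicate 1 were again the low ones, and its log2 fold change was -0.48 (95% interval -1.28 to 0.31, limma adjusted p = 0.316). Without wild-type replicate 3 it was -0.78 and without mutant replicate 1 it was -0.14, neither past the threshold. Of the 10 members it had the widest range, with the highest library at 2.95 times the lowest.

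The second H3 copy, hht2, had 452, 512 and 459 TPM in wild-type cells and 589, 579 and 546 TPM in the mutant. All mutant libraries were above all wild-type libraries, a separation in either direction that was found in 3 of 10 members and in 47.8% of all genes. The mutant mean was 1.20 times the wild-type mean, and the log2 fold change of 0.27 (95% interval 0.03 to 0.51) did not pass the test (limma adjusted p = 0.0811). With median-of-ratios or TMM scaling over genes the groups overlapped. When values were rescaled over clusters the change was at or just below 0, at -0.05 with median-of-ratios factors and -0.03 with TMM. The third copy, hht3, had 411, 552 and 399 TPM in wild-type cells and 297, 375 and 427 TPM in the mutant. The groups overlapped at their edges (log2 fold change -0.31, 95% interval -0.73 to 0.11, limma adjusted p = 0.225). Without wild-type replicate 2 the change was -0.16 and without mutant replicate 1 it was -0.17, while it was -0.63 and -0.61 with median-of-ratios and TMM scaling over clusters.

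Within H3, hht1 made up 54.3%, 52.4% and 41.0% of tags in wild-type cells and 30.9%, 46.6% and 44.9% in the mutant. The share of hht2 was 23.9%, 22.9% and 31.6% in wild-type cells and 45.9%, 32.4% and 30.9% in the mutant. In mutant replicate 1, and there only among the 6 libraries, hht2 was ahead of hht1. The groups overlapped for both copies (exact permutation p = 0.3 and 0.2, both 0.6 after Benjamini-Hochberg adjustment over 8 shares). The share of hht3 was 24.6% ± 2.84 and 22.8% ± 1.62.

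The H4 genes kept a fixed order, hhf1 above hhf2 above hhf3, in every library. The copy hhf1 had 712, 735 and 825 TPM in wild-type cells and 718, 681 and 695 TPM in the mutant, a range within which the groups overlapped (log2 fold change -0.11, 95% interval -0.36 to 0.13, limma adjusted p = 0.442). For hhf2 the values were 168, 254 and 185 TPM in wild-type cells and 215, 174 and 190 TPM in the mutant. Here wild-type replicate 2 was the high one, and the log2 fold change was -0.05 (95% interval -0.45 to 0.35, limma adjusted p = 0.849), or 0.12 without that library.

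The least abundant core gene, hhf3, had 134, 145 and 129 TPM in wild-type cells and 107, 110 and 113 TPM in the mutant. All mutant libraries lay below all wild-type libraries. The mutant mean was 0.811 times the wild-type mean (log2 fold change -0.30, 95% interval -0.54 to -0.06), which missed the threshold with the deposited scaling (limma adjusted p = 0.0587). It passed when values were rescaled by median-of-ratios or TMM factors over genes, with log2 fold changes of -0.45 and adjusted p = 0.0232 and 0.0190, where 14.8% and 15.3% of all genes fell. It also fell with edgeR (log2 -0.46, adjusted p = 0.0204, 14.9% of genes lower) and DESeq2 (log2 -0.45, adjusted p = 0.00473, 16.9% of genes lower). With the deposited scaling, hhf3 did not pass with a replicate block either (limma adjusted p = 0.169). Nor did it pass when any 1 library was left out (limma adjusted p between 0.0825 and 0.156).

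The H4 shares varied less between libraries than those of hht1 and hht2 in H3. The share of hhf1 in H4 tags was 69.2% ± 3.90 in wild-type cells and 69.7% ± 0.786 in the mutant (n = 3 each, exact permutation p = 0.9). Those of hhf2 were 18.4% ± 3.43 and 19.2% ± 1.35, and those of hhf3 12.4% ± 1.002 and 11.03% ± 0.616. The ratio of H3 to H4 tags was 1.70 ± 0.373 in wild-type cells and 1.62 ± 0.336 in the mutant. It was lowest in wild-type replicate 3, at 1.28, and in mutant replicate 1, at 1.23.

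Scaling set the level of all these changes. The median log2 change over all genes was 0.13 as deposited, -0.01 and -0.02 with median-of-ratios and TMM factors over genes, and -0.18 and -0.16 with the same factors computed over clusters. The last 2 scalings were added after the data had been seen. With them, hta2, hhf1, hht3 and hhf3 fell, where 24.1% and 22.8% of all genes fell. Relative to the median of all genes, 7 members lay below it and 3, htb1, hht2 and pht1, above it with the deposited scaling.

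**Figure D3:**
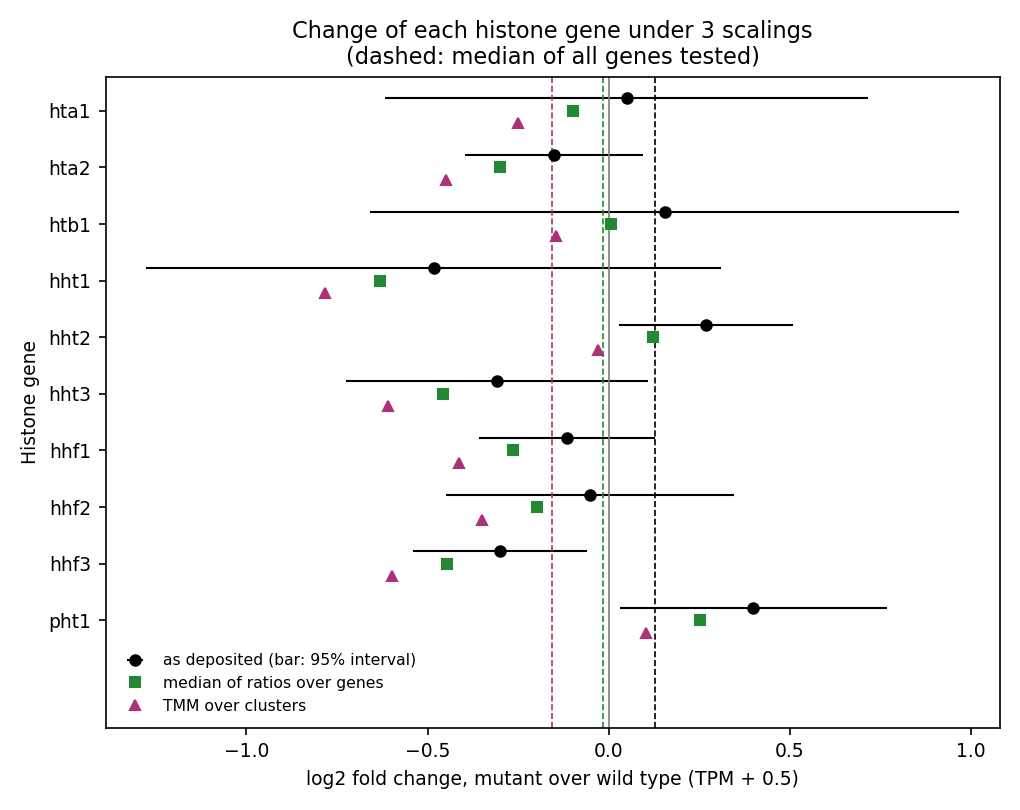
Log2 fold change (x axis, mutant over wild type, on TPM + 0.5) of each histone gene (y axis) with the deposited scaling and with 2 rescalings; bars are limma's 95% intervals for the deposited scaling, not adjusted for multiple tests, and dashed lines are the medians of all genes tested. The 3 estimates of each gene shift left together, and the intervals of hht2, hhf3 and pht1 exclude 0.

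The H2A.Z gene pht1 had the lowest level of the 10, at 35.0, 48.3 and 42.6 TPM in wild-type cells and 50.2, 52.7 and 63.1 TPM in the mutant. All mutant libraries were above all wild-type libraries, the closest being mutant replicate 1 and wild-type replicate 2. The mutant mean was 1.32 times the wild-type mean (log2 fold change 0.40, 95% interval 0.03 to 0.77), and this did not pass the test (limma adjusted p = 0.0907). It was 0.25 with median-of-ratios or TMM scaling over genes, where the groups overlapped, and 0.08 and 0.10 with the same scalings over clusters. Its share of H2A and H2A.Z tags together was 1.71% ± 0.328 in wild-type cells and 2.29% ± 0.448 in the mutant, with overlapping groups (exact permutation p = 0.3).

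Unlike the core genes, pht1 started at 2 separate places. The annotated start held 14.4 ± 1.87 TPM in wild-type cells and 15.8 ± 4.29 TPM in the mutant. A second cluster 324 bp downstream, 59 bp before the start codon, held 20.8, 32.0 and 30.0 TPM in wild-type cells and 39.0, 34.1 and 43.7 TPM in the mutant. It was the larger of the clusters in every library, and its mutant libraries were all above the wild-type ones. The change of this cluster, a log2 fold change of 0.50, was just short of the threshold (limma adjusted p = 0.0568), and that of the annotated start was 0.10 (adjusted p = 0.748). The downstream cluster made up 59.3%, 66.2% and 70.4% of pht1 tags in wild-type cells and 77.7%, 64.7% and 69.2% in the mutant. These shares overlapped (exact permutation p = 0.5).

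Levels thus spanned from htb1 to pht1. In the wild type the order of means was htb1, hta1, hta2, hht1, hhf1, hht2, hht3, hhf2, hhf3 and pht1. Ranges of neighbours overlapped from hta1 through hhf1 and between hht2 and hht3, and did not overlap elsewhere. In the mutant hhf1 came before hht1, with overlap from hhf1 through hht2 and between hta1 and hta2. As these are tags at 5′ ends, levels need no correction for length. Summed over the 9 core genes, tags were 1.04% ± 0.184 of the library in wild-type cells and 1.10% ± 0.315 in the mutant.

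Ratios within the divergent pairs differed from pair to pair in level, and none of them passed a test between the groups. The ratio of hta1 to htb1 was 0.244, 0.264 and 0.283 in wild-type cells and 0.275, 0.257 and 0.207 in the mutant. The highest library was 2.18 times the lowest for hta1 and 2.36 times for htb1, and their ratio varied less, with overlapping groups (exact permutation p = 0.6). The ratio of hht3 to hhf3 was 3.32 ± 0.416 and 3.31 ± 0.509.

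The ratio of hht1 to hhf1 was 1.44, 1.59 and 0.723 in wild-type cells and 0.552, 1.22 and 1.14 in the mutant. It fell below 1 in wild-type replicate 3 and mutant replicate 1, where hht1 was low while hhf1 was not. The groups overlapped (exact permutation p = 0.5). The ratio of hht2 to hhf2 was 2.69, 2.02 and 2.48 in wild-type cells and 2.74, 3.33 and 2.88 in the mutant. All mutant libraries were above all wild-type ones, wild-type replicate 1 being close to mutant replicate 1. This gives the smallest p that 3 libraries against 3 allow (exact permutation p = 0.1, 0.4 after Benjamini-Hochberg adjustment over 4 pairs).

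**Figure D4:**
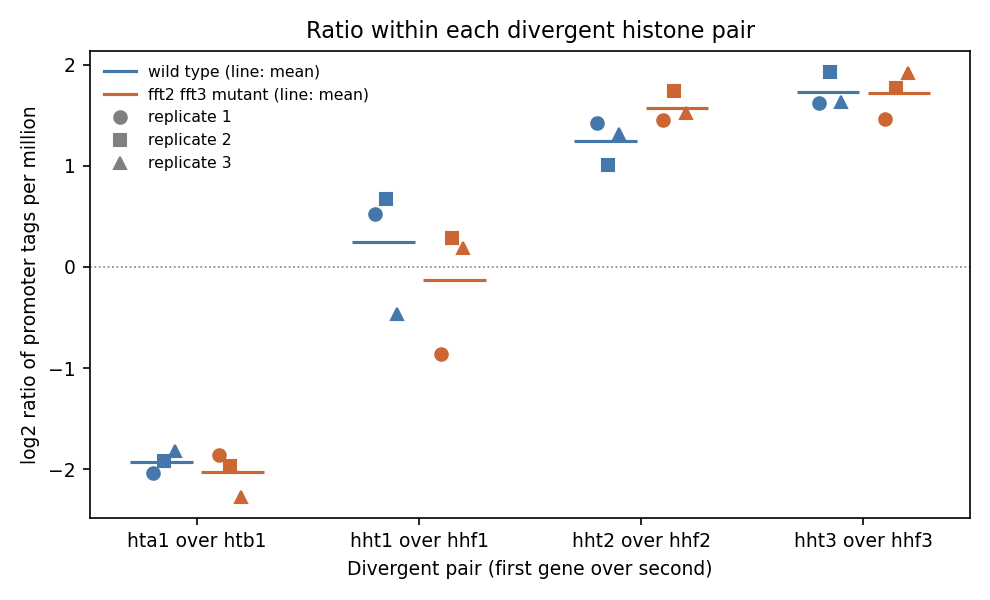
Log2 ratio of promoter TPM of the first over the second gene of each divergent pair, per library, with group means as lines and a dotted line at equal levels. The ratio of hta1 to htb1 stays between -2.27 and -1.82 in all libraries, that of hht1 to hhf1 is below 0 in wild-type replicate 3 and mutant replicate 1, and that of hht2 to hhf2 is higher in all mutant libraries.

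The same libraries were low for several members. Wild-type replicate 3 was the lowest wild-type library for 6 members, against 31.0% of all genes, and mutant replicate 1 the lowest mutant library for 6, against 43.3%. Both held for 5 members, hta1, htb1, hht1, hht3 and hhf3, against 20.3% of all genes. These counts and shares are for the deposited scaling only. With median-of-ratios or TMM scaling over genes, the lowest wild-type library of hht3 was replicate 1, just below replicate 3. The lowest mutant library of hhf3 was then replicate 2. Both still held for hta1, htb1 and hht1. The largest drops were in hta1, htb1 and hht1, whereas hta2 and hhf1 had a highest library only 1.24 and 1.21 times the lowest. The part of culture growth or library preparation in this pattern was not tested.

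Of 4031 candidate coding genes, those whose log2 profile over the 6 libraries was most like the mean of the core genes were mug157, tho7, dpp1, SPCC757.11C and coq12. Their root mean square differences from it were 0.05, 0.05, 0.06, 0.06 and 0.07. All 5 were less abundant than any core gene, with wild-type means from 7.62 TPM (mug157) to 55.4 TPM (coq12). The core genes themselves lay further from their mean profile, from 0.14 for hht3 to 0.35 for hht1. The mean thus blends unlike profiles, and likeness to it is not likeness to any 1 histone gene.

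Start positions of the members did not pass a test either. The tag-weighted mean start differed between groups in 12.5% of 3966 genes (limma adjusted p under 0.05) and in 0 of 10 members. This mean moves only when tags pass between clusters. In each core gene the main cluster held at least 97.4% of tags, and hhf2 had only 1 cluster. The measure thus had little room to move in the core genes, and the count is no result about how stable their starts are. The estimated shift was -3.53 bp for hht1 (SE 2.09, adjusted p = 0.387), but -1.42 bp without mutant replicate 1 and -0.02 bp with a window from 200 bp upstream, which leaves out the minor clusters further upstream. For hht3 it was -0.21 bp, and it was smaller still for the other core genes. For pht1 it was 19.0 bp downstream (SE 15.2, adjusted p = 0.544), and 9.28 bp without wild-type replicate 1 and 7.82 bp without mutant replicate 1. A shift inside a cluster cannot be seen, since every cluster has the same summit in all libraries.

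Clusters were also tested one by one. Of all 11250 clusters tested, 36.9% rose, 9.36% fell and 46.2% changed either way. Of 14 promoter clusters of the members, 2 rose and none fell. None of the 10 main clusters passed, and both risers were among the 4 minor ones. DESeq2 on the recovered tags called 1 of the 14 higher and 5 lower, and edgeR 1 and 4. Both tools scaled over the clusters, unlike the limma fit that gave 36.9% and 9.36%. Their shares over all clusters are not given, so these counts have no background here. A cluster 346 bp upstream of hht1 rose from 3.79, 2.996 and 3.24 TPM to 7.83, 6.55 and 6.39 TPM. All mutant libraries were above all wild-type libraries (log2 fold change 0.95, limma adjusted p = 0.00136). It lies within the coding part of hhf1, 213 bp from the annotated start of that gene and antisense to it.

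The other riser, 110 bp upstream of htb1 in the bases shared with hta1, went from 1.34 ± 0.178 to 2.25 ± 0.386 TPM (log2 fold change 0.57, limma adjusted p = 0.0262). This call was lost when any of wild-type replicates 2 and 3 and mutant replicates 1 and 3 was left out, with adjusted p between 0.0592 and 0.0784. It was also lost with median-of-ratios and TMM scaling over genes (adjusted p = 0.0721 and 0.0715), with a replicate block, without the filter on low values, and with edgeR and DESeq2.

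Another 10 clusters of at least 1 TPM lay in or near the members on either strand, from 500 bp before the start to 300 bp beyond the gene's end. Of these, 7 rose, none fell and 3 did not pass, where 36.9% of all clusters rose. These calls come from the limma fit with the deposited scaling. No other scaling or setting is reported for them, so how far they depend on it is not shown. Inside htb1, a cluster 436 bp from the start in the coding part went from 1.94 ± 0.247 to 3.02 ± 0.300 TPM (limma adjusted p = 0.0282). A narrow cluster in its 3′ untranslated region held 14.2 ± 4.38 and 17.4 ± 4.02 TPM (adjusted p = 0.378). Downstream of hht2, a cluster 909 bp from its start rose from 3.24 ± 1.06 to 6.97 ± 0.853 TPM (adjusted p = 0.00678). The start of the lncRNA SPNCRNA.5148, 782 bp from that of hht2, rose from 7.84 ± 1.10 to 11.6 ± 1.85 TPM (adjusted p = 0.0375). Clusters 1011 bp from the start of hht3 (3.48 to 5.81 TPM, adjusted p = 0.0177) and 1006 bp from that of hhf2 (0.660 to 1.83 TPM, adjusted p = 0.00158) rose as well. So did a cluster 264 bp upstream of hta2 on the opposite strand (0.805 to 2.04 TPM, adjusted p = 0.0209) and another 1406 bp from the start of htb1 (1.02 to 1.64 TPM, adjusted p = 0.0282). Those near hhf2 and hta2, at 0.660 and 0.805 TPM in wild-type cells, reached a mean of 1 TPM only through the mutant. Their rise is thus not independent of that filter, and the count of 7 includes them. A cluster in the coding part of hta1 did not pass (2.18 and 3.02 TPM, adjusted p = 0.231). All of these levels were far below those of the main clusters of the same genes.

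**Figure D5:**
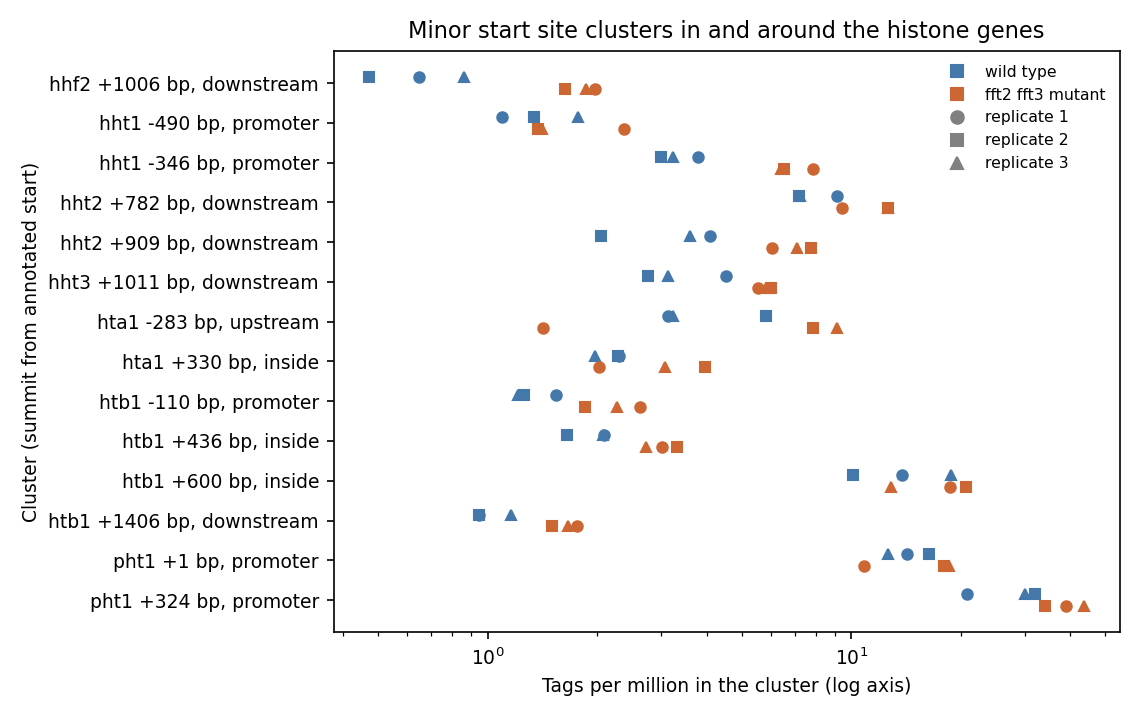
TPM (log axis), by library, in the minor clusters of at least 1 TPM in or near the histone genes and in both clusters of pht1. The cluster 264 bp upstream of hta2 on the opposite strand is left out. Labels give the gene, the distance of the summit from its annotated start and the place of the cluster. Among others, the cluster 346 bp upstream of hht1 and those downstream of hht2 (909 bp), hht3 and hhf2 have all mutant libraries to the right of all wild-type libraries. The cluster 283 bp upstream of hta1 has mutant replicate 1 as its lowest library.

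Antisense starts were few inside most histone genes, and also inside most coding genes no longer than the longest member. The mutant mean was under 0.5 TPM in 8 of 10 members, against 39.3% of 5113 coding genes and 64.7% of the 1568 that are no longer than the longest member. Over all coding genes, the median antisense level was 0.198 TPM in wild-type cells and 0.905 TPM in the mutant. In hht2 no antisense tag was found in any library. The exceptions were hhf1, with 4.98, 4.49 and 5.21 TPM in wild-type cells and 10.4, 8.02 and 7.95 TPM in the mutant, mostly in the cluster upstream of hht1, and htb1.

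The antisense tags of htb1 came mainly from the lncRNA SPNCRNA.7358, which starts in the leader of htb1 and runs towards hta1. Its cluster, 283 bp upstream of hta1, had 3.14, 5.84 and 3.24 TPM in wild-type cells and 1.42, 7.84 and 9.11 TPM in the mutant. It was lowest in mutant replicate 1, as were htb1 and hta1, and the groups overlapped (limma adjusted p = 0.719). Counting it for hta1 would add at most 0.635% to that gene.

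The lists that follow are to be read against all genes, of which 24.3% rose and 9.11% fell. With median-of-ratios and TMM scaling over genes, 1046 and 1039 of the 5610 genes tested rose, and 14.8% and 15.3% fell. Counts rescaled over genes are to be read against the latter. Among the 9 other genes tested that act in histone gene transcription, 1 rose and none fell. Their median log2 fold change was 0.40 against 0.13 over all genes, and 0.26 and 0.25 with median-of-ratios and TMM scaling over genes, against -0.01 and -0.02. The riser was hip1, of the HIRA histone chaperone complex, which represses histone genes outside S phase. It went from 13.2, 12.9 and 13.9 TPM to 22.4, 21.5 and 19.1 TPM, with no overlap (log2 fold change 0.64, limma adjusted p = 0.00765). The activator gene ams2 had 79.3, 64.5 and 94.5 TPM in wild-type cells and 98.6, 69.9 and 74.9 TPM in the mutant (adjusted p = 0.917), and teb1 had 112 ± 23.7 and 121 ± 21.6 TPM (adjusted p = 0.685). The groups overlapped for both.

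Of 12 genes for chaperones of H3 and H4, 1 rose and 1 fell, with a median log2 fold change of -0.10. The gene that fell was pcf2, a subunit of chromatin assembly factor CAF-1, which went from 34.9 ± 2.94 to 22.3 ± 0.645 TPM (log2 fold change -0.63, limma adjusted p = 0.00641). The elongation factor and H3-H4 chaperone gene spt6 rose from 182 ± 26.0 to 275 ± 61.2 TPM (adjusted p = 0.0409), and lost the call when values were rescaled over genes, where 0 rose and 3 fell. Of 7 genes for H2A-H2B chaperones and the FACT complex, 1 rose, the H2A.Z-H2B chaperone gene chz1 (118 ± 1.70 to 152 ± 7.34 TPM, adjusted p = 0.0251), and none did when rescaled over genes. Their median log2 fold change was 0.31.

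Of 18 genes for H2A.Z exchange, 5 rose and 1 fell, with a median log2 fold change of 0.16, and 2 rose and 3 fell when rescaled over genes. The share that rose was near that of all genes. The ATPase gene ino80 rose from 176 ± 5.96 to 298 ± 20.7 TPM (log2 fold change 0.75, limma adjusted p = 0.00103). Others were swr1 (5.00 to 7.38 TPM, adjusted p = 0.0379), the catalytic subunit that deposits H2A.Z, and swc2, arp6 and arp8. The gene for the Swr1 complex subunit swc5 fell from 22.1 ± 3.28 to 10.4 ± 1.01 TPM (log2 fold change -1.05, adjusted p = 0.00180). The centromeric H3 variant gene cnp1 had 12.03 ± 0.360 and 15.2 ± 1.502 TPM (adjusted p = 0.112), and neither it nor hmo1, the other gene of its list, passed.

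Of 18 S phase genes of the MBF transcription factor programme, 4 rose and 3 fell, with a median log2 fold change of 0.10. The share that rose was again near that of all genes, and the list includes parts and regulators of MBF. The B-type cyclin gene cig2 fell from 10.8, 7.41 and 9.16 TPM to 4.39, 3.92 and 3.83 TPM (log2 fold change -1.07, limma adjusted p = 0.00260), and the groups did not overlap. The MBF corepressor gene yox1 (42.1 to 21.3 TPM) and the MBF subunit gene cdc10 (10.6 to 5.53 TPM) fell too, with adjusted p = 0.000566 and 0.0146. The MBF activator gene rep2, the cohesin gene rad21 and the ribonucleotide reductase gene suc22 rose by log2 fold changes between 0.50 and 0.69. When rescaled over genes, 1 of the 18 rose and 5 fell.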

How the data were processed

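The submitters' processing notes name CASAVA 1.6, Bowtie 0.12.7, bedtools 2.15.0 and genome build ASM294v2 without saying what each tool did. Deposited values are RPM, written as TPM: the authors divided tags by each library's total, for clusters that are the same in every library. A pooled signal per cluster, deposited by the authors over all libraries, was not tested. Of the values above 0, 99.7% to 99.8% came out as whole tags (tolerance 0.02), and these recovered tags served the count tests. At 5 TPM, counting error alone is 9.28% to 12.6%.

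A gene's value is the sum of clusters on its strand whose summit lies at most 500 bp before its annotated start and no further than 100 bp after it, or the start codon where that lies beyond. A cluster inside several windows counts for the nearest start. Annotation and sequences come from assembly ASM294v3. Its coordinates were checked against the deposited ones by the pyrimidine-purine step at starts, which 97.6% to 98.7% of clusters had. Genes and clusters whose mean over the libraries reached 1 TPM entered two-sided tests with limma 3.58.1 (trend) on log2(TPM + 0.5), with p-values adjusted over all features by the Benjamini-Hochberg method and a threshold of 0.05. This scale understates changes of low values. Start positions were tested where each library had 5 TPM or more. Alternatives were edgeR 4.0.16, DESeq2 1.42.0, other pseudocounts, filters, scalings and windows, a fit with a replicate block, and fits without each library in turn. Shares, pair ratios and totals had exact two-sided permutation tests. Named genes are all members, up to 6 passing genes of each of 6 lists by size of change, and the 5 most similar coding genes. Outside this rule, fft2, fft3 and ura4 check the labels, and ams2, teb1, cnp1, hmo1, bdf2, ssa1, tbp1 and erg1 were named after their values were seen. The members and lists were chosen with earlier results of these data known. Values are means ± SD, n = 3 libraries per group, and fold values without "log2" are ratios of mean TPM.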

Additional observations from a re-analysis of the deposited data

How the results depend on the processing

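No member rose under any setting. The count that fell was 1 with median-of-ratios or TMM scaling, edgeR and DESeq2 (hhf3 each time), 4 with either scaling over clusters, and 0 under every other setting. Over all genes, 2810 rose with no filter, 749 with a mean of at least 5 TPM, and 814 and 843 with median-of-ratios and TMM scaling over clusters, against 1362. The count that fell, 511, became 833 and 860 with these scalings over genes, 1351 and 1280 over clusters, 834 with edgeR and 947 with DESeq2, and between 309 and 470 when a library was left out. Of the members' promoter clusters, 5 rose and 1 fell with no filter, and 1 rose with a mean of at least 5 TPM. With either scaling over genes 1 rose and 1 fell, with edgeR 1 and 4, and with DESeq2 1 and 5. Leaving out a library gave 1 or 2 that rose. Filters change how many clusters are tested, and no share of all clusters is given for these settings. These cluster counts therefore describe how calls depend on the setting and are no result about the members. The cluster upstream of hht1 kept its call under all 15 settings.

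Directions of uncalled log2 fold changes turned as follows. That of hta1 was -0.10 with either scaling over genes, -0.064 with edgeR and -0.063 with DESeq2, and -0.27 and -0.25 with scaling over clusters, and ranged from -0.19 to 0.38 when a library was left out. That of htb1 was -0.17 and -0.14 with scaling over clusters and ranged from -0.060 to 0.57 without a library. That of hht2 was -0.052 and -0.030 with scaling over clusters, and that of hhf2 ranged from -0.17 to 0.12 without a library. With windows from 1000 bp upstream, the start shift of hht3 was 0.03 bp and that of hhf3 0.22 bp. The H4 difference, -94.2 TPM, was -202 and -207 TPM with median-of-ratios and TMM scaling. The cause of these changes was not tested, except that scaling moves all genes together.

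Replicate numbers did not pair the libraries, since same-numbered deviations correlated at -0.21, -0.21 and -0.34. With a replicate block, 285 genes fell, 1 promoter cluster rose and no member passed; no library correlated best with its own number. The best matches were with other numbers, at 0.43, 0.39 and 0.41 for wild-type replicates 1 to 3.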
